A study of Mus musculus with 6 samples.

Results

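The small nucleolar, small nuclear and Y RNAs on the array were taken as all probe sets whose gene symbol in the authors' gene table began with Snord, Snora, Scarna, Rnu or Rny. The rule found 137 of the 28440 probe sets that were not array controls, and these stood for 76 RNAs. They were 36 C/D box RNAs (Snord), 27 H/ACA box RNAs (Snora), 3 Cajal body RNAs (Scarna), 8 U RNAs (Rnu) and 2 Y RNAs (Rny). Probe sets of 1 RNA with equal values were counted once. The 8 RNAs whose probe sets differed are represented by the profile with the most probe sets. Where profiles tied, the 1 with the higher mean was taken. The tissue was the whole lung of 8 week old C57BL/6 mice, which were given 100 uL of medium into the abdominal cavity each day for 7 days. In the LN4 group (arrays LN4 1 and LN4 3) the medium came from PC3M-LN4 cells, a metastatic derivative of the human prostate cancer line PC3. In the PC3 group (PC3 4 and PC3 5) it came from PC3 cells themselves. The Control animals (Control 2 and Control 4) were given RPMI medium. The study design names 2 mice in each of the 3 groups, matching 1 array per mouse, and this small number limits the precision of every value.

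Small nucleolar RNAs guide chemical changes of other RNAs. The C/D box RNAs bind fibrillarin and direct 2'-O-methylation of ribosomal and small nuclear RNA, the H/ACA box RNAs bind dyskerin and direct pseudouridylation, and Cajal body RNAs do the same for spliceosomal RNAs. In mammals most of them are cut from introns of host genes, many of which encode ribosomal proteins or are noncoding RNAs with little known role beyond carrying them. U RNAs include the spliceosomal U1, U2 and U12, the histone processing RNA U7 and the nucleolar U3. Y RNAs are short RNA polymerase III transcripts bound by the Ro60 and La proteins and are linked to RNA quality control and DNA replication. All are short and lack the long poly(A) tails of messenger RNAs, and silica columns such as the kit used here are known to retain short RNAs poorly, so the share of each RNA that reached the arrays is unknown and the part of the extraction in the values was not tested.

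The arrays differed in technical quality. The share of probe sets detected above background lay between 35.4% and 50.9%, and each group held an array of low detection (LN4 1, PC3 4 and Control 2) and an array of higher detection. The 8 squamous epithelium markers had a median log2 value of 12.47 on LN4 3 and 7.29 on PC3 4 and of 4.58 to 4.87 on the other 4 arrays. The 8 skeletal muscle markers had a median of 10.12 on LN4 3 and of 5.03 to 5.54 on the others. All 17 markers of lung epithelium and endothelium lay above the background on all arrays. Because whole lungs were measured, fewer cells of a type and less RNA per cell cannot be told apart.

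Most of the small RNAs lay close to the background of the array. The 95th percentile of the negative control probe sets lay between 7.37 and 7.69 on the log2 scale. Of the 76 RNAs, 11 lay above it on all 6 arrays, 14 on some arrays and 51 on none. The 11 were 6 C/D box RNAs, 2 H/ACA box RNAs, Scarna17, Rnu2 and Rny3. On single arrays, 13 to 23 of the 76 lay above this level, where 7846 to 9593 of all 28440 probe sets did. Most probe sets therefore lay under it as well. A filter that left out the 25% of probe sets with the lowest mean retained 63 of the 76, and 13 were described without a test.

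The lungs of the PC3 group held lower values of most small RNAs than Control lungs. In PC3 minus Control, 61 of the 76 RNAs had a lower mean, where 48.2% of all probe sets had, and 15 a higher one, where 51.8% had. Of the 76, 39 had both PC3 arrays below both Control arrays, where 15.5% of all probe sets had. The median change was -0.37 on the log2 scale, against 0.0077 for all probe sets. No probe set passed an adjusted p of 0.05 (0.0% of 21330, limma with Benjamini-Hochberg adjustment), small RNAs included. At an unadjusted p under 0.05, 11 of the 63 tested RNAs (17.5%) were lower and 0 higher, where 1.71% of all tested probe sets (365) were lower and 0.525% (112) higher.

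Markers of blood leukocytes were also lower in PC3 than in Control lungs. All 4 neutrophil markers had a lower mean, where 46.6% of all tested probe sets had, and their median change was -0.965. At an unadjusted p under 0.05, 3 of the 4 were lower, where 1.71% of all tested probe sets were. Among the 3 were S100a8 at -1.27 and S100a9 at -1.28. The median log2 value of the 4 neutrophil markers was 7.03 and 7.29 on the LN4 arrays, 6.30 and 6.79 on the PC3 arrays, and 7.17 and 7.83 on the Control arrays. All 5 T and NK cell markers (median -0.48) and all 4 B cell markers (median -0.45, 1 at an unadjusted p under 0.05) were lower as well. In LN4 minus PC3 the medians were 0.68 for neutrophil, 0.051 for T and NK cell and -0.19 for B cell markers, and in LN4 minus Control -0.19, -0.36 and -0.69. Most of these markers lay below the negative control level on most arrays, and 2 of the 4 neutrophil markers did so on all 6. The part of these cells in the small RNA values was not tested.

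**Figure D1:**
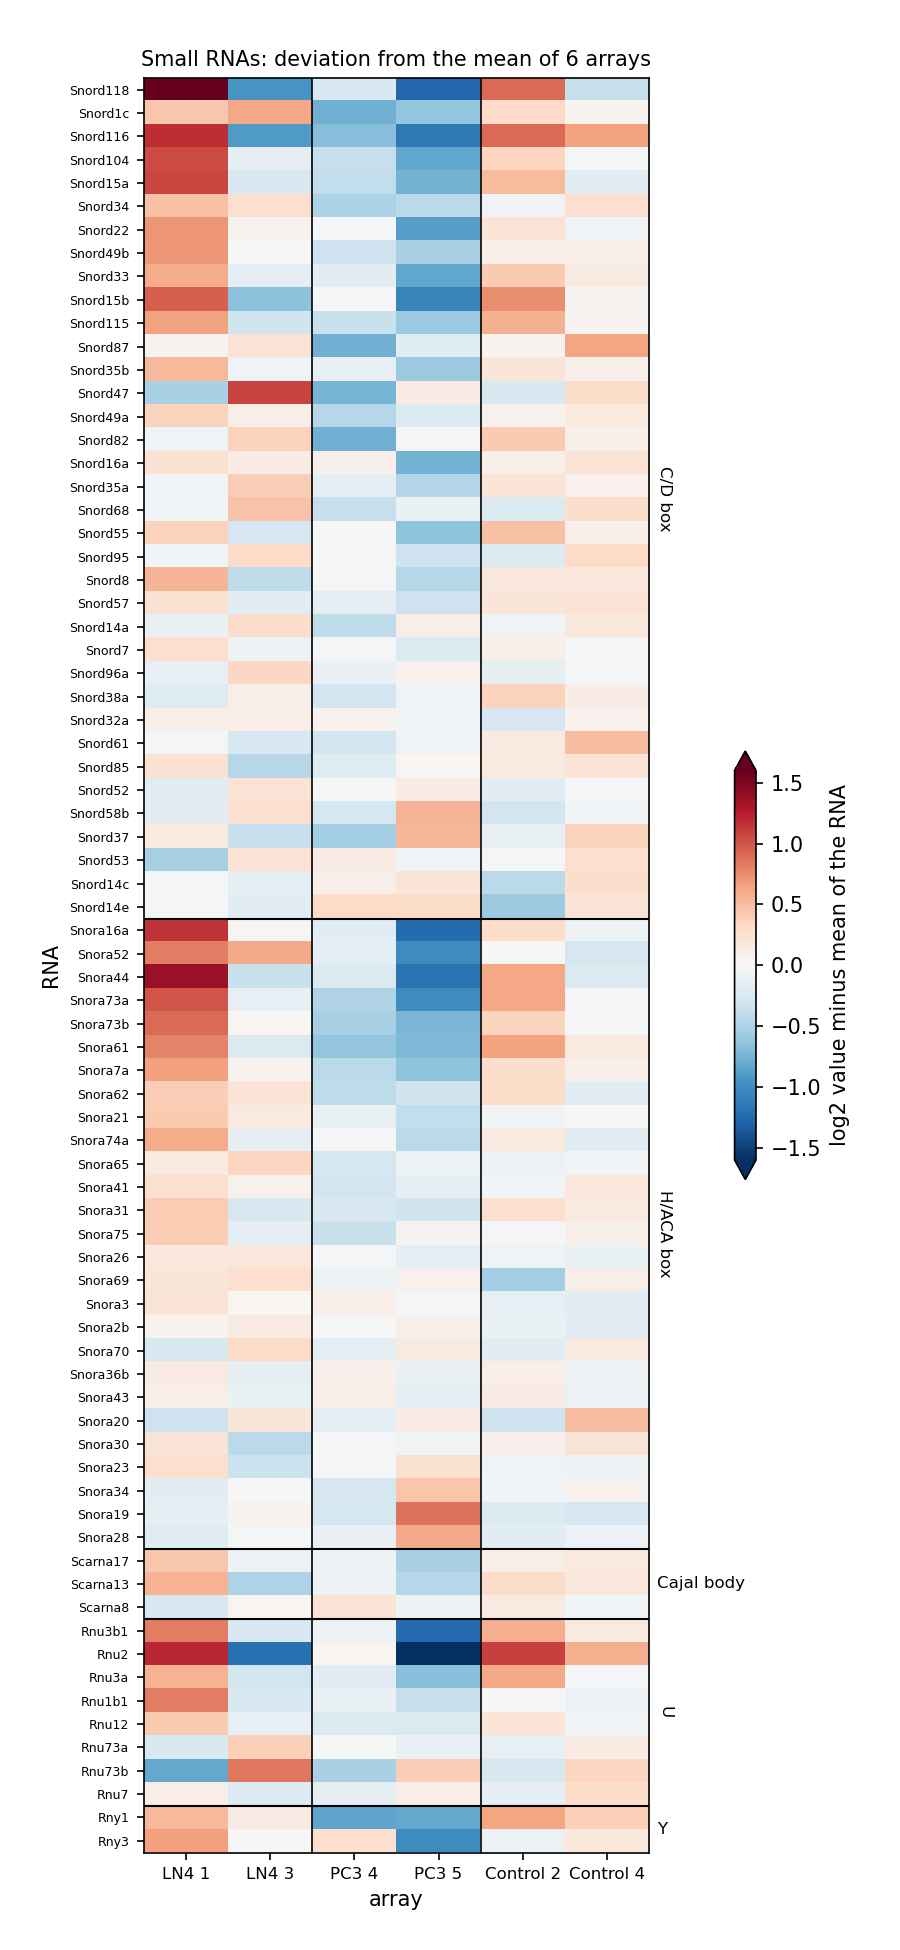
Heat map of the 76 small RNAs (rows, grouped by class) on 6 arrays (columns). Colour is the log2 value minus the RNA's own mean over the arrays, and red is higher. LN4 1 was the highest of the 6 arrays for 43 RNAs, and PC3 5 the lowest for 35. Of all 28440 probe sets, these arrays were so for 7643 and 7698.

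The map of all 76 RNAs shows that single arrays stood out within their groups. LN4 1 was the highest of the 6 arrays for 43 RNAs and LN4 3 for 13. PC3 5 was the lowest for 35 RNAs and PC3 4 for 19. Of all 28440 probe sets, LN4 1 was the highest for 7643 and LN4 3 for 4783. PC3 5 was the lowest for 7698 of them and PC3 4 for 3119. The group values below therefore rest on arrays that differed, and each is given with its values on all arrays where it matters.

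Of the Y RNAs, Rny1 had log2 values of 6.17 and 5.77 in LN4 lungs, 4.80 and 4.83 in PC3 lungs, and 6.28 and 6.02 in Control lungs. The PC3 arrays lay below the 4 others, which overlapped among themselves. Rny1 was 2.52-fold lower in PC3 than in Control lungs (log2 change -1.33, SE 0.21, unadjusted p = 0.000388 in the limma fit, adjusted p = 1.0). Its log2 change was 1.16 (SE 0.21) in LN4 minus PC3 and -0.18 (SE 0.21) in LN4 minus Control. All its values were in the range of the negative controls. Rny3 had log2 values of 12.19 and 11.55 in LN4 lungs, 11.81 and 10.53 in PC3 lungs, and 11.44 and 11.71 in Control lungs. Its groups overlapped, and its change in PC3 minus Control was -0.41 (SE 0.43). Without LN4 3 and PC3 4, the arrays with high squamous markers, the median of both Y RNAs was -1.19 in PC3 minus Control and 1.501 in LN4 minus PC3, against -0.87 and 0.93 with all arrays. Without PC3 5 these medians were -0.56 and 0.62.

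Of the 36 C/D box RNAs, 30 had a lower mean in PC3 than in Control lungs, and 21 of them had both PC3 arrays below both Control arrays, where 15.5% of all probe sets had. Their median change was -0.46, and 6 of the 31 tested were lower at an unadjusted p under 0.05, where 1.71% of all tested probe sets were. Between LN4 and PC3 lungs, 29 of the 36 had a higher mean in LN4, with a median change of 0.46, and 15 had non-overlapping arrays in that direction, where 12.8% of all probe sets had. The LN4 minus Control median was 0.042, with 21 RNAs higher and 15 lower. These comparisons share arrays, so they are not independent of each other. Without LN4 3 and PC3 4 the C/D box medians were -0.46 in PC3 minus Control, 0.089 in LN4 minus Control and 0.45 in LN4 minus PC3. Without LN4 1 the median was 0.27 in LN4 minus PC3 and turned to -0.078 in LN4 minus Control.

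Snord1c, whose gene lies inside Snhg16, had log2 values of 5.67 and 5.87 in LN4 lungs, 4.48 and 4.61 in PC3 lungs, and 5.55 and 5.30 in Control lungs. The 3 groups did not overlap. It was 1.83-fold lower in PC3 than in Control lungs (log2 change -0.88, SE 0.19, unadjusted p = 0.00253 in the limma fit), and 2.33-fold higher in LN4 than in PC3 lungs (log2 change 1.22, SE 0.19, unadjusted p = 0.000378). The adjusted p was 1.0 for the first and 0.842 for the second. Without LN4 1, with the other LN4 array assumed to vary like the other groups, the second change was 1.32 and its adjusted p 0.019 in limma, while without the other single arrays it was between 0.479 and 0.9995.

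Snord34, which lies inside Rpl13a and guides methylation of 28S ribosomal RNA, had log2 values of 6.96 and 6.75 in LN4 lungs, 5.98 and 6.06 in PC3 lungs, and 6.43 and 6.77 in Control lungs. Its change was -0.58 (SE 0.20) in PC3 minus Control and 0.83 (SE 0.20) in LN4 minus PC3. Snord33, from the same gene, had values of 9.67 and 8.93 in LN4 lungs, 8.92 and 8.25 in PC3 lungs, and 9.51 and 9.23 in Control lungs, above the background on all arrays. Its change in PC3 minus Control was -0.78 (SE 0.33). Both RNAs had PC3 arrays below the Control arrays. Snord87, inside Snhg6, had a change of -0.83 (SE 0.28) and Snord61, inside Rbmx, of -0.50 (SE 0.21) in PC3 minus Control.

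The C/D box RNAs with the highest means included Snord57 and Snord15b. Snord57, inside Nop56, had values of 10.48 and 10.05 in LN4 lungs, 10.07 and 9.89 in PC3 lungs, and 10.42 and 10.46 in Control lungs. Its PC3 arrays lay below the Control arrays, with a change of -0.46 (SE 0.21). Snord15b, inside Rps3, had values of 10.61 and 8.99 in LN4 lungs, 9.63 and 8.58 in PC3 lungs, and 10.39 and 9.68 in Control lungs. The spread within its groups was as large as the differences between them, and its change in PC3 minus Control was -0.93 (SE 0.58). Snord14e, inside the heat shock gene Hspa8, was among the few that ran the other way. Its values were 7.66 and 7.51 in LN4 lungs, 8.01 and 7.99 in PC3 lungs, and 7.11 and 7.89 in Control lungs, a change of 0.50 (SE 0.27) in PC3 minus Control.

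The imprinted brain RNAs Snord115 and Snord116, which come from a cluster of repeated copies, were measured by 16 and 21 probe sets. The 4 distinct profiles of Snord116 had changes between -1.82 and -1.58 in PC3 minus Control, and the 3 of Snord115 between -0.82 and -0.67. The Snord116 profile that 18 probe sets share had values of 6.12 and 4.02 in LN4 lungs, 4.24 and 3.79 in PC3 lungs, and 5.84 and 5.57 in Control lungs. It was lower on LN4 3 and both PC3 arrays than on the other 3. All its values lay within the background of the array, and so did those of all 4 neuron markers on all arrays.

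**Figure D2:**
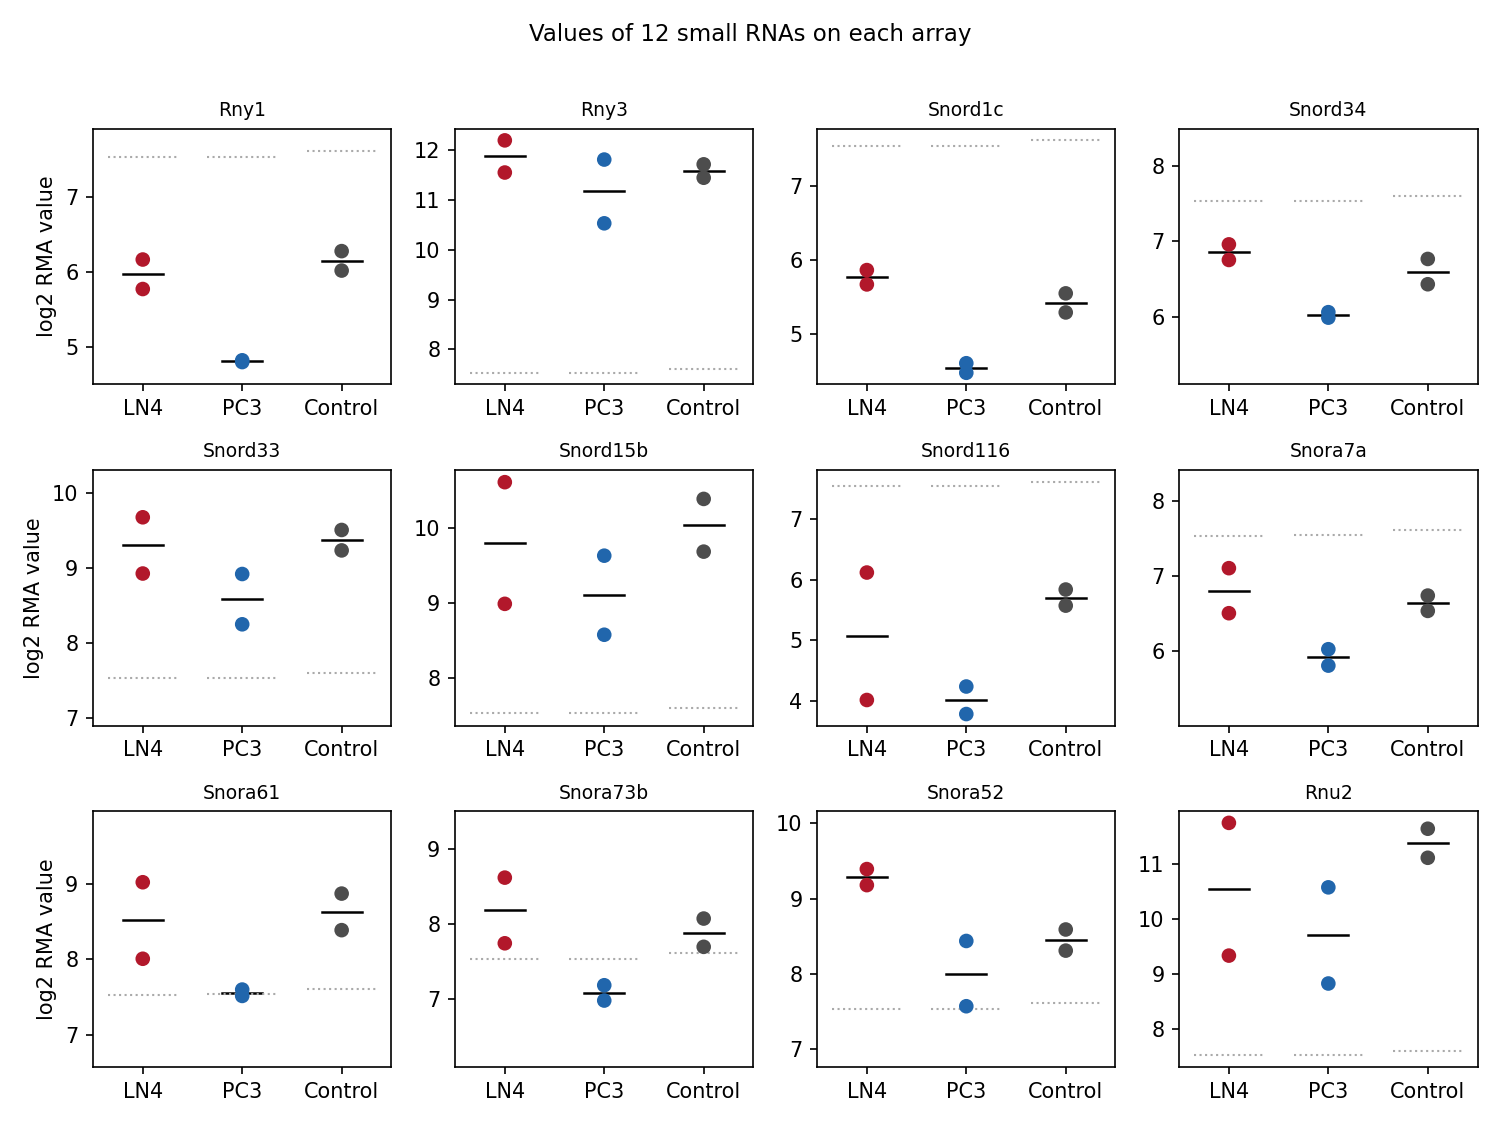
Log2 values of 12 small RNAs on each array. Points are single arrays of LN4, PC3 and Control lungs, black bars are group means, and dotted lines are the group means of the 95th percentile of the negative controls. Both PC3 points of Rny1 and Snord1c lie under all other points.

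The dot plots of 12 RNAs place each array beside its background level. In Rny1, Snord1c, Snord34, Snora7a, Snora61 and Snora73b both PC3 points lay under all the LN4 and Control points. Snord34, Snora7a, Snora61 and Snora73b were named in part because their PC3 and Control arrays did not overlap. Their order therefore followed in part from the choice. Of all probe sets, 15.5% had both PC3 arrays below both Control arrays, and the share below the LN4 arrays as well was not counted. In Snord15b, Snord116 and Rnu2 the 2 LN4 points lay far apart.

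Of the 27 H/ACA box RNAs, 19 had a lower mean in PC3 than in Control lungs, and 10 had both PC3 arrays below both Control arrays, where 15.5% of all probe sets had. Their median change was -0.18, and 4 of the 21 tested were lower at an unadjusted p under 0.05, where 1.71% of all tested probe sets were. Between LN4 and PC3 lungs, 21 had a higher mean in LN4, with a median of 0.28, and 9 of the 21 tested were higher at that level, where 2.2% of all tested probe sets were. In LN4 minus Control, 20 had a higher mean, with a median of 0.17, and 8 had both LN4 arrays above both Control arrays, where 13.9% of all probe sets had. Without LN4 3 and PC3 4 the medians were -0.16 in PC3 minus Control, 0.33 in LN4 minus Control and 0.33 in LN4 minus PC3. Without LN4 1 the median turned to -0.013 in LN4 minus Control and was 0.25 in LN4 minus PC3.

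Snora61, from the Snhg12 gene, had log2 values of 9.03 and 8.01 in LN4 lungs, 7.60 and 7.51 in PC3 lungs, and 8.87 and 8.39 in Control lungs. It was 2.11-fold lower in PC3 than in Control lungs (log2 change -1.08, SE 0.35, unadjusted p = 0.0176 in the limma fit). Snora73b, a U17 RNA needed for ribosomal RNA cleavage, had values of 8.62 and 7.74 in LN4 lungs, 7.18 and 6.98 in PC3 lungs, and 8.07 and 7.70 in Control lungs. Its change was -0.80 (SE 0.31) in PC3 minus Control and 1.10 (SE 0.31) in LN4 minus PC3. Its neighbour Snora73a, inside the same gene Snhg3, had changes of -1.04 (SE 0.41) and 1.18 (SE 0.41). Both U17 RNAs had PC3 arrays below all the others. The copies are similar in sequence, so their probe sets may share signal.

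Snora7a, inside Rpl32, had values of 7.10 and 6.50 in LN4 lungs, 6.02 and 5.81 in PC3 lungs, and 6.74 and 6.53 in Control lungs. Its change was -0.72 (SE 0.24) in PC3 minus Control and 0.89 (SE 0.24) in LN4 minus PC3. Snora52, inside Rplp2, had 9.39 and 9.18 in LN4 lungs, 8.44 and 7.57 in PC3 lungs, and 8.59 and 8.31 in Control lungs. It was 2.43-fold higher in LN4 than in PC3 lungs (log2 change 1.28, SE 0.30). In LN4 minus Control its log2 change was 0.84 (SE 0.30), with an adjusted p of 0.9997 from limma. At an unadjusted p under 0.05 it was the 1 small RNA of 63 tested (1.59%) that was higher in LN4 than in Control lungs, where 0.849% of all tested probe sets (181) were higher, and 0 were lower, where 1.2% (256) were.

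The comparison of LN4 with PC3 lungs set 61 of the 76 RNAs higher in LN4 lungs, where 52.5% of all probe sets were higher. The median change was 0.39, against 0.0145 for all probe sets. No probe set passed the adjusted threshold with all arrays, while without LN4 1, leaving LN4 3 as the only LN4 array, 715 did in LN4 minus PC3 and 853 in LN4 minus Control. At an unadjusted p under 0.05, 16 of the 63 tested RNAs (25.4%) were higher and 0 lower, where 2.2% of all tested probe sets (470) were higher and 2.93% (624) lower. Between LN4 and Control lungs, 46 RNAs were higher in LN4, where 51.0% of all probe sets were, and 30 lower, where 49.0% were, with a median of 0.058.

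**Figure D3:**
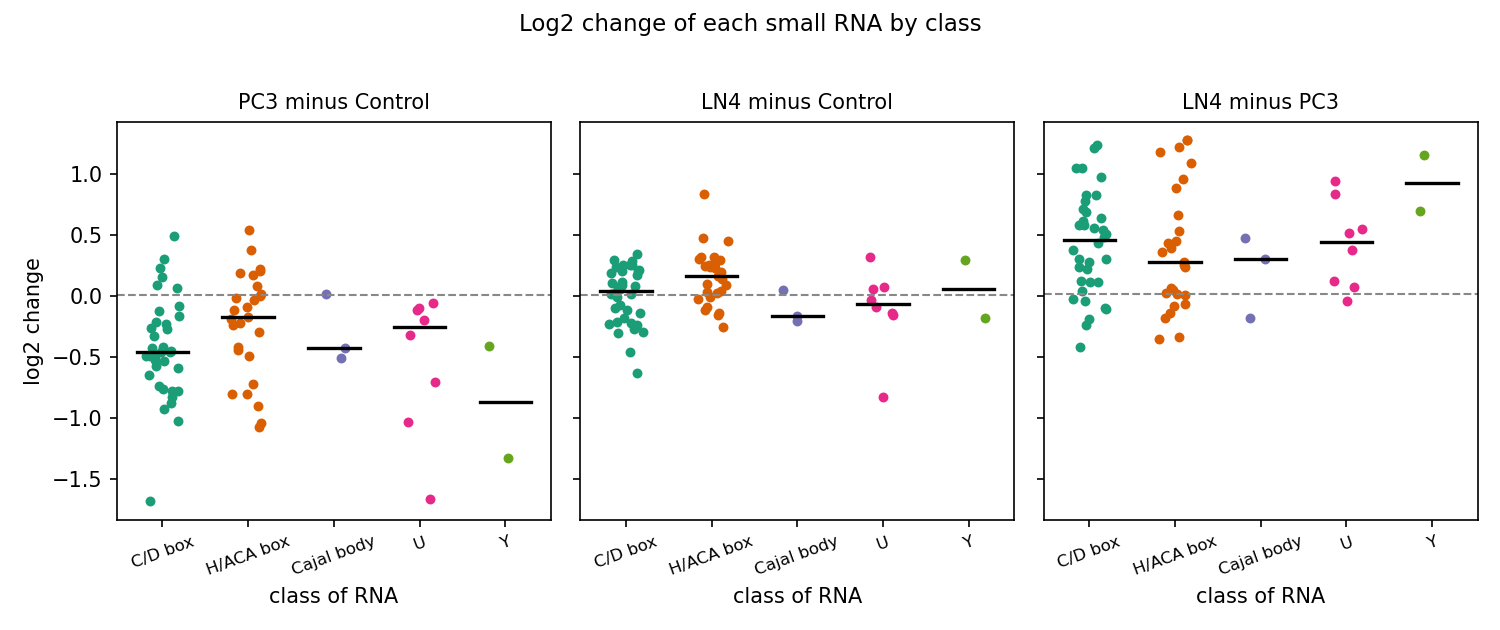
Log2 changes of the 76 RNAs by class in the 3 comparisons. Points are single RNAs, black bars are class medians and the dashed line is the median of all probe sets. The medians of C/D box RNAs are -0.46 in PC3 minus Control, 0.042 in LN4 minus Control and 0.46 in LN4 minus PC3.

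The plot of changes by class shows most members of the C/D box, H/ACA box, U and Y classes under 0 in PC3 minus Control and above 0 in LN4 minus PC3. The H/ACA box RNAs ranged between -1.08 and 0.54 in PC3 minus Control and between -0.36 and 1.28 in LN4 minus PC3. Differences between the classes were not tested.

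All 8 U RNAs had a lower mean in PC3 than in Control lungs, with a median of -0.26, and 5 had both PC3 arrays below both Control arrays, where 15.5% of all probe sets had. No U RNA had an unadjusted p under 0.05. Rnu2, the U2 RNA that pairs with the branch point in splicing, had values of 11.74 and 9.33 in LN4 lungs, 10.57 and 8.83 in PC3 lungs, and 11.63 and 11.10 in Control lungs. Its change was -1.67 (SE 0.83) in PC3 minus Control, and its LN4 arrays differed by more than its groups. Rnu3b1, a U3 RNA needed for early cleavage of the ribosomal precursor, had values of 8.36 and 7.29 in LN4 lungs, 7.47 and 6.30 in PC3 lungs, and 8.13 and 7.70 in Control lungs. Its change was -1.03 (SE 0.47), and that of Rnu3a was -0.71 (SE 0.36). Rnu1b1 (U1), Rnu12 (U12, of the minor spliceosome), Rnu7 (U7), Rnu73a and Rnu73b had changes between -0.32 and -0.054. RefSeq names the last pair Snord73a and Snord73b. This pair and the U3 RNAs are also C/D box RNAs, so the U class and the C/D box class are not separate families. With these added, 40 C/D box RNAs had medians of -0.46 in PC3 minus Control, 0.023 in LN4 minus Control and 0.46 in LN4 minus PC3. Without LN4 3 and PC3 4 the U RNA medians were -0.32 in PC3 minus Control, 0.30 in LN4 minus Control and 0.91 in LN4 minus PC3, against -0.26, -0.062 and 0.45 with all arrays. Without LN4 1 the median was -0.26 in LN4 minus Control and 0.12 in LN4 minus PC3.

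Of the Cajal body RNAs, Scarna17 had values of 11.87 and 11.35 in LN4 lungs, 11.36 and 10.91 in PC3 lungs, and 11.53 and 11.59 in Control lungs. Its change in PC3 minus Control was -0.43 (SE 0.25). Scarna13 had a change of -0.51 (SE 0.34), and Scarna8, which was not tested because of its low values, one of 0.020. Scarna17 and Scarna13 had both PC3 arrays below both Control arrays.

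Members were also compared between the array of low and the array of higher detection within each group. Averaged over the 3 groups, the median difference was 0.15 for the 76 RNAs, against 0.079 for all probe sets. In all 3 groups, 31 of the 76 were higher on the array of low detection, where 31.5% of all probe sets were, and 14 were lower, where 16.3% were. In a fit with the groups and detection class, 19 of 63 tested RNAs were higher at an unadjusted p under 0.05, where 11.5% of all tested probe sets were, and 7 were lower, where 7.75% were. No difference passed the adjusted threshold. The largest were Snord118 (U8), at 1.70, and Rnu2, at 1.56, while Rnu73b, at -1.06, ran the other way.

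**Figure D4:**
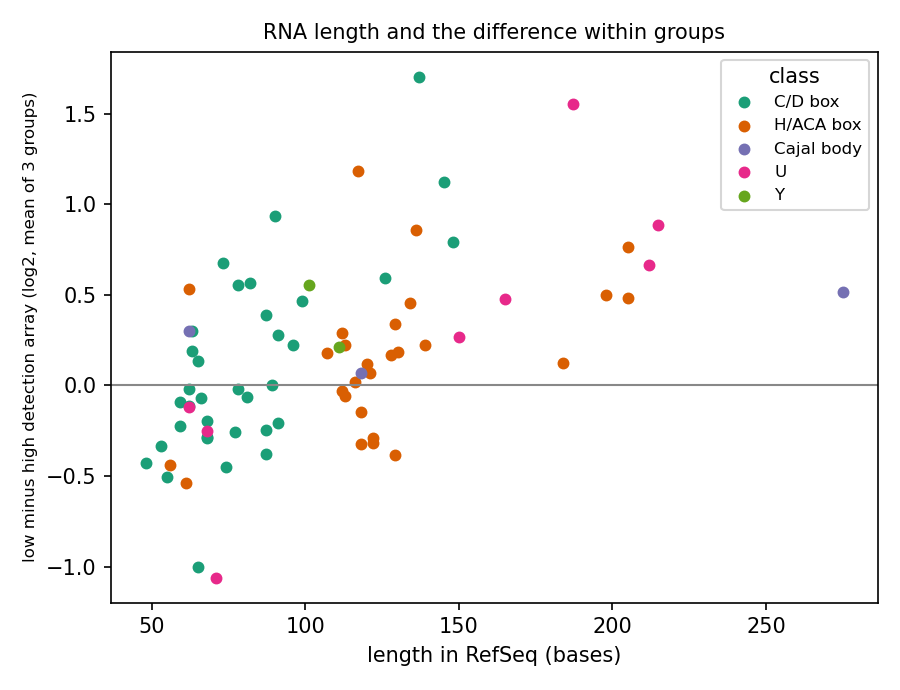
Length of 75 small RNAs in RefSeq (bases, horizontal) against the log2 difference between the array of low and the array of higher detection, averaged over 3 groups (vertical). Colours are classes. Of the 38 RNAs of at least 99 bases, 22 were higher on the array of low detection in all 3 groups.

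The 38 RNAs at or above the median length, 99 bases, had a median difference of 0.28, and 22 of them were higher on the array of low detection in all 3 groups. The 37 shorter RNAs had a median of -0.11, and 8 of them were higher in all 3 groups. Spearman's rho with length was 0.557 over 75 RNAs, which share arrays and differ in base composition. With the mean log2 value of the RNA over the arrays it was 0.51. The parts of length and of signal level were not tested apart. The plot of length against this difference shows the longest RNAs, U3, U17 and Scarna13, above 0. The change in PC3 minus Control had a median of -0.36 for the 38 longer and -0.33 for the 37 shorter RNAs. With the limit at the upper quartile, 129 bases, it was -0.71 for 19 longer and -0.25 for 56 shorter RNAs, so the gap depended on the limit, and both limits were chosen after the values were seen. Over the 75 RNAs, Spearman's rho of this change was -0.18 with length and -0.351 with the mean log2 value. Within the arrays of low detection the median of the 76 RNAs in PC3 minus Control was -0.30, and within those of higher detection -0.37. It was 0.48 and 0.30 in LN4 minus PC3, and 0.17 and -0.073 in LN4 minus Control, so that the last sign turned with the pair of arrays. The part of detection in the differences between groups was not tested further.

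The host genes were compared with the RNAs they enclose. Of the 76 RNAs, 65 lay inside another gene in the RefSeq table of GRCm38.p6, taken as the shortest enclosing gene on either strand, and the enclosing gene of 48 of these RNAs had a probe set. The 48 RNAs lay in 38 genes, of which 17 encode ribosomal proteins, many with near-identical copies that can share signal. In PC3 minus Control, RNA and gene were both lower in 29 pairs and both higher in 7. Both were higher in 33 pairs and both lower in 10 in LN4 minus PC3. In LN4 minus Control both were higher in 21 pairs and both lower in 6, the RNA was lower and the gene higher in 12, and the RNA was higher and the gene lower in 9. Spearman's rho across the 48 pairs was 0.375 in PC3 minus Control, 0.165 in LN4 minus Control and 0.754 in LN4 minus PC3. The comparisons share arrays, and pairs that share a gene or arrays are not independent.

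**Figure D5:**
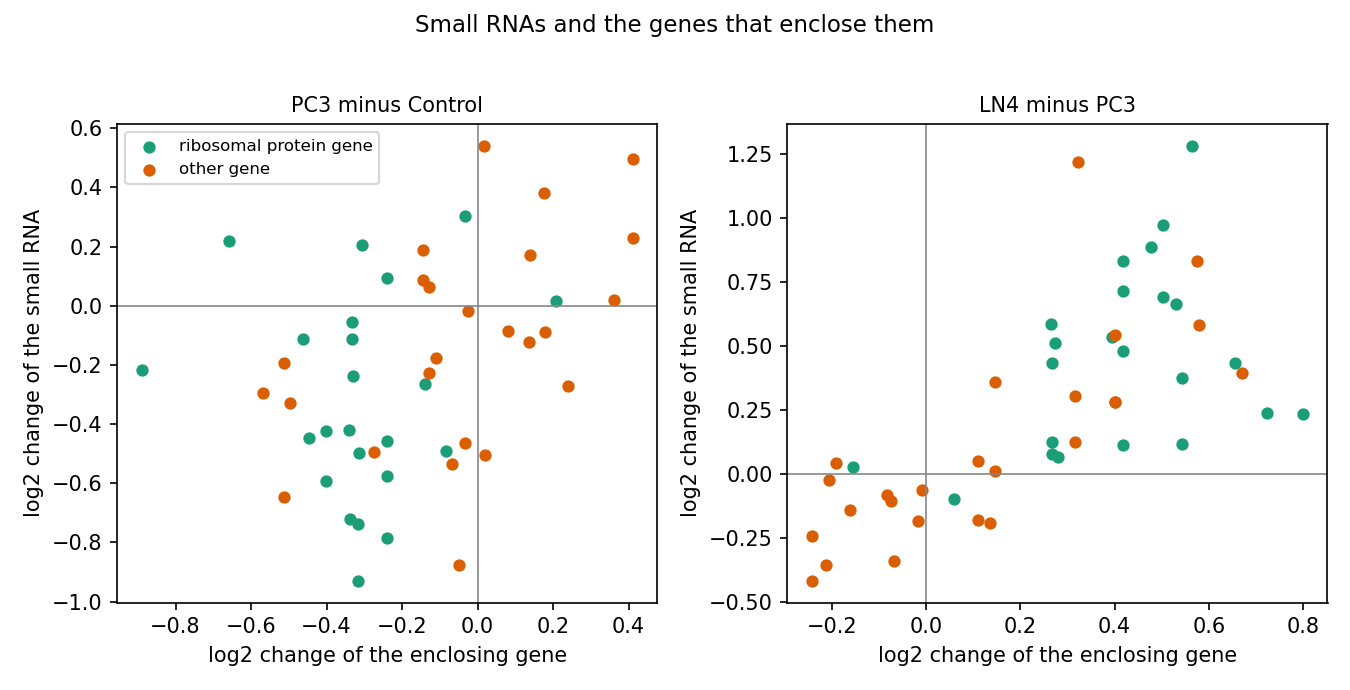
Log2 change of 48 small RNAs (vertical) against that of the gene that encloses each (horizontal), in PC3 minus Control (left) and LN4 minus PC3 (right). Green points are RNAs in ribosomal protein genes. On the right, 22 of the 23 RNAs in ribosomal protein genes lie above 0.

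The scatter of RNAs against their enclosing genes shows the RNAs of ribosomal protein genes in a colour of their own. Those 23 RNAs had a median of -0.42 in PC3 minus Control, 18 of them lower, and of 0.44 in LN4 minus PC3, 22 of them higher. The 25 RNAs in other genes with a probe set had medians of -0.12 and 0.013. RNAs whose enclosing gene had no probe set are in neither set. Most of these were lower in PC3 minus Control, with changes between -1.08 (Snora61) and 0.16 (Snord52). Most were higher in LN4 minus PC3, between -0.038 (Snord52) and 1.28 (Snora16a). The contrast therefore does not cover all RNAs outside ribosomal protein genes. Gas5, a noncoding host of many C/D box RNAs, had values of 11.27 and 11.42 in LN4 lungs, 10.70 and 10.83 in PC3 lungs, and 11.25 and 11.28 in Control lungs, a change of -0.50 (SE 0.17) in PC3 minus Control. Zfas1, another such host, had 8.72 and 8.76 in LN4 lungs, 7.85 and 7.88 in PC3 lungs, and 8.67 and 8.27 in Control lungs, a change of -0.61 (SE 0.20). Of the 34 coding host genes listed, 20 were lower and 14 higher in PC3 than in Control lungs, with a median of -0.083. Of all tested probe sets, 46.6% were lower. At an unadjusted p under 0.05, 3 of the 34 were lower, where 1.71% of all tested probe sets were. The lowest of the 34 were the ribosomal protein genes Rps13, with a change of -0.89 (SE 0.21), and Rps12, with -0.86 (SE 0.23), while Hspa8 was at 0.41 (SE 0.24). In Gas5, Zfas1, Rps13 and Rps12 both PC3 arrays lay below all the others. These genes were named for their small p, so this order followed in part from the choice. Of all probe sets, 15.5% had both PC3 arrays below both Control arrays.

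Snhg12 encloses Snora16a, Snora44 and Snora61, Snhg3 encloses the U17 RNAs, and Snhg16 encloses Snord1c. The 100 bases around the annotated start of each of these noncoding genes, 50 on each side, are shown from RefSeq on GRCm38.p6. These genes carry Snora61, Snora73a, Snora73b and Snord1c, whose PC3 arrays lay below all the others. The same held for RNAs in other noncoding genes whose starts are not shown, such as Snord87 in Snhg6 and Snord104 in Gm36220. In Snora44, also in Snhg12, PC3 and Control arrays overlapped. Capitals mark CTTTC or its reverse complement GAAAG, letters that were searched after the sequences had been seen. They lay in 23.4% of the 32851 windows of the same length. The windows are chr4:132308628-132308727 on the plus strand for Snhg12, chr4:132353637-132353736 on the minus strand for Snhg3 and chr11:116671610-116671709 on the plus strand for Snhg16.
Snhg12: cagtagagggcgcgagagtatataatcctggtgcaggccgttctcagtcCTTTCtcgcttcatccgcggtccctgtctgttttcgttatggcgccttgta
Snhg3: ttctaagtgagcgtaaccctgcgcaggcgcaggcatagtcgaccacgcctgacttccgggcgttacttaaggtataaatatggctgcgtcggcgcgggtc
Snhg16: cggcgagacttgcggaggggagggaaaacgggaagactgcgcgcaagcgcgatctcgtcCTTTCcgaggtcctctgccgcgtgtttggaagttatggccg

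Lists of genes that carry or bind these RNAs were counted in the same way. Of all tested probe sets, 46.6% were lower and 53.4% higher in PC3 minus Control, and 1.71% were lower at an unadjusted p under 0.05. In LN4 minus PC3, 47.8% of them were higher. Of the 8 measured noncoding host genes, 7 were lower in PC3 than in Control lungs, with a median of -0.30, and 2 had an unadjusted p under 0.05. Of 17 snoRNP core and assembly proteins, 10 were lower, with a median of -0.033. Of 26 spliceosomal snRNP proteins, 13 were lower and 13 higher, with a median of -0.013. Among the 7 Sm ring proteins in that list, Snrpd1, Snrpd2, Snrpd3 and Snrpe, the 4 with an unadjusted p under 0.05, had changes between -0.69 and -0.46, Snrpg was at -0.43, Snrpf at -0.21 and Snrpb at 0.24. Of 8 Y RNA binding proteins, 4 were lower and 4 higher. Ro60 had a change of 0.14 (SE 0.19) and Ssb, which encodes La, of -0.15 (SE 0.24). In LN4 minus PC3, 13 of the 17 snoRNP proteins and 15 of the 26 snRNP proteins were higher, and so were 7 of the 8 noncoding hosts, with medians of 0.16, 0.049 and 0.46. Of 34 coding hosts, 26 were higher there, with a median of 0.26. The genes of RNA polymerase III and snRNA transcription ran the other way in PC3 minus Control, with 17 of 20 higher and a median of 0.098, and 8 of 13 small RNA decay and processing genes were higher, with a median of 0.018. No listed gene passed the adjusted threshold in any comparison.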

How the data were processed

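Small RNA values were read from log2 RMA values that the authors deposited, for 6 arrays, per the file headers and the submitters' processing notes. RMA corrects background, equalises arrays and summarises probes; its version is not given in the sources used here. In the authors' chip report, one column gives, per the file headers, the percent of probe sets above background, the intensity columns, per the file headers, are mean brightness, and the score columns, per the file headers, are residual and relative log expression. The table equalled the series' value table for all 35556 probe sets. After 7116 controls, the 25% of the other probe sets with the lowest mean were left out, leaving 21330. A limma fit used 3 group means over all 6 arrays, empirical Bayes moderation (prior degrees of freedom 3.885, residual 3), two-sided tests and Benjamini-Hochberg adjustment at 0.05. P-values rest on the spread between the 2 animals of each group, taken over all 3 groups together. Arrays have no read depth, so their number limits precision. Names and lengths came from RefSeq (GRCm38.p6), which matched 75 of 76 RNAs. That table has no strand, so enclosing genes were taken on either strand.

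The members and lists were chosen with earlier results of these data known. Named were all U, Y and Cajal body RNAs, Snord1c, the C/D and H/ACA box RNAs with the smallest p among those with non-overlapping arrays, those with the highest means and listed genes with small p; the text gives some of these. The fit was tested on simulated arrays for PC3 minus Control with 21330 probe sets: of 100 changed by 1 on the log2 scale 3 were recovered, of 100 changed by 2, 56, with 3 false calls. R 4.3.3, limma 3.58.1, Python 3.11.15 and matplotlib 3.10.9 were used. Alternatives were other filters, normalizations and fits, single arrays left out, the detection class as a block and other ways of counting members.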

Additional observations from a re-analysis of the deposited data

How the results depend on the processing

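No paired analysis was possible because the groups compared share fewer than 2 replicate numbers. A class median was counted as moved when it shifted by more than 1 SD between replicates of that median, pooled over the 3 groups. This spread was chosen after the results were seen, in place of that of the 2 groups compared: of 213 recomputed medians 27 moved or turned under it, and 41 under the other. As in the fit on all arrays (at an unadjusted p under 0.05 in limma, 112 higher and 365 lower in PC3 minus Control, 181 and 256 in LN4 minus Control, 470 and 624 in LN4 minus PC3), no probe set was called under other filters, normalizations, the trend or the detection block. Leaving out LN4 3 and PC3 4, with 1 array in each of these groups and the spread taken from the 2 Control arrays, 514 were called in PC3 minus Control, 200 in LN4 minus Control and 2593 in LN4 minus PC3. P-values there rest on the spread of that 1 pair of arrays. The named small RNAs were partly chosen for small p in the same comparisons, so their calls there are not an independent result. Leaving out single arrays gave 0 in PC3 minus Control, 0 to 853 in LN4 minus Control and 0 to 715 in LN4 minus PC3, both highest without LN4 1.

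In PC3 minus Control, the C/D box median was -0.78 with every probe set counted. Snord115 and Snord116 held 16 and 21 of those 75 probe sets. In each comparison this median equalled the change of the Snord115 profile that 13 probe sets share. That profile lay below the negative control level on all arrays. The medians of members above the background were -0.80 (H/ACA box, the value of Snora73b), -1.67 (U, Rnu2 alone) and -0.41 (Y, Rny3 alone). In LN4 minus PC3 the C/D box median was 0.64 with every probe set counted and 0.27 to 0.45 without single arrays. The medians of members above the background were 1.10 (H/ACA box, the value of Snora73b) and 0.84 (U, Rnu2 alone). The Cajal body median was -0.036 to 0.73 and the U median 0.12 to 0.81 without single arrays, and without LN4 3 and PC3 4 they were 0.96 and 0.91, with 1.501 for Y. LN4 minus Control had no stable sign. Its C/D box median was -0.14 with every probe set counted and -0.078 to 0.089 without single arrays. Its H/ACA box median was -0.013 to 0.33, its Cajal body median -0.25 to 0.30 and its U median -0.26 to 0.30 without single arrays. Without LN4 3 and PC3 4 these were 0.33, 0.30 and 0.30. For members above the background the medians were 0.30 (H/ACA box, the value of Snora73b) and -0.83 (U, Rnu2 alone).

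Of single RNAs, without LN4 3 and PC3 4 the sign turned for Rnu73b in PC3 minus Control (0.35), for Rnu73a (-0.13) and Rnu73b (-1.21) in LN4 minus PC3, and in LN4 minus Control for Scarna13 (0.32), Rnu2 (0.37), Rnu3a (0.27), Rnu3b1 (0.45), Rnu73a (-0.24), Rny1 (0.018), Snord57 (0.035), Snord15b (0.57), Snord33 (0.30), Snord35a (-0.20, and -0.010 after quantile normalization) and Snora61 (0.39). With single arrays left out the sign turned in PC3 minus Control for Rnu73a (-0.17 to 0.066), Rnu73b (-0.57 to 0.35) and Rny3 (-1.05 to 0.23). It also turned in LN4 minus Control for Scarna13 (-0.73 to 0.32), Scarna17 (-0.21 to 0.30), Rnu12 (-0.21 to 0.33), Rnu1b1 (-0.21 to 0.86), Rnu2 (-2.03 to 0.37), Rnu3a (-0.58 to 0.27), Rnu3b1 (-0.62 to 0.45), Rnu73a (-0.24 to 0.39), Rnu73b (-0.87 to 0.80), Rny1 (-0.37 to 0.018), Rny3 (-0.030 to 0.61), Snord57 (-0.39 to 0.035), Snord15b (-1.04 to 0.57), Snord33 (-0.44 to 0.30), Snord35a (-0.20 to 0.25), Snora61 (-0.62 to 0.39), Snora73b (-0.14 to 0.73) and Snora7a (-0.13 to 0.47). The same held in LN4 minus PC3 for Scarna13 (-0.22 to 0.82), Rnu1b1 (-0.016 to 1.05), Rnu2 (-0.36 to 2.04), Rnu73a (-0.19 to 0.44), Rnu73b (-0.75 to 0.91), Snord15b (-0.11 to 1.503) and Snora75 (-0.0041 to 0.57). The causes were not tested.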

Other observations

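Probe sets that the array annotates as small nucleolar RNA through Ensembl, without a gene symbol, lay outside the rule. Over 260 distinct profiles, 179 had a lower mean in PC3 than in Control lungs, where 48.2% of all probe sets had. Their median log2 change was -0.10. Only 104 of the 260 passed the filter, and 8 to 14 lay above the negative control level on single arrays. In LN4 minus PC3, 202 of the 260 had a higher mean, where 52.5% of all probe sets had, with a median of 0.15. The 547 profiles annotated as small nuclear RNA had medians of -0.0048 in PC3 minus Control and 0.10 in LN4 minus PC3. Of these, 86 passed the filter, and 1 to 10 lay above the negative control level on single arrays.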
